A study of Mus musculus with 13 samples.

Results

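The 10 genes described here encode proteins of the extracellular matrix that fibroblasts are best known for making: the interstitial collagen chains Col1a1, Col1a2 and Col3a1, the basement-membrane collagen chains Col4a1 and Col4a2, the small proteoglycan Dcn (decorin), the calcium-binding matrix protein Mgp (matrix Gla protein), elastin (Eln), fibronectin (Fn1) and the matricellular glycoprotein Sparc. They were found by gene symbol among the 22656 genes of the deposited table, and all 10 had a row and passed the filter on low values. RNA came from mouse melanoma cells of the line B16F10-TR-shApoe, a B16F10 derivative whose name records a short hairpin RNA against Apoe. The cells had been injected into the tail vein of knock-in mice that carry APOE2 (8 libraries) or APOE3 (5 libraries), which are alleles of the human apolipoprotein E gene. The allele compared was therefore that of the host, and every group shared the same tumour line with its hairpin. Lungs were digested with collagenase on day 15, and living GFP-positive cells without CD45, a surface protein of leukocytes, were sorted before RNA was purified. The age and sex of the mice and the meaning of TR are not given in the sources used here. The series text gives as many mice as libraries in each group, but no label ties a library to a mouse, so p-values measure the spread between these libraries.

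Fibrillar collagens I and III are the main load-bearing fibres of interstitial tissue. Collagen I is built from Col1a1 and Col1a2 chains, and collagen III from Col3a1 chains alone. Col4a1 and Col4a2 chains join in 1 triple helix that forms the sheet-like network of basement membranes under epithelia and around vessels. Decorin binds collagen fibrils, Mgp inhibits calcification, elastin gives lung and vessel walls their recoil, fibronectin is a cell-adhesive glycoprotein, and Sparc binds collagen and calcium. Fibroblasts, smooth muscle cells and endothelium of the lung make several of these proteins, while many tumour cells, melanoma cells among them, are known to make Sparc and fibronectin. A sorted tumour fraction can therefore hold such transcripts from the tumour cells themselves or from host cells that passed the gate.

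Of the 10 genes, 5 had an entry in the RefSeq promoter table for GRCm38.p6: Col1a2, Col3a1, Col4a1, Col4a2 and Sparc. The Col4a1 and Col4a2 genes stand head to head on chromosome 8 and are read outward from a shared start region. The 22 bases between and including both annotated starts, chr8:11312805-11312826, are shown because they belong to the first exon of both genes, with the motif GGGCGG or its reverse complement in capitals.
Col4a2 strand (+): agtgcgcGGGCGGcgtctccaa
Col4a1 strand (−): ttggagacgCCGCCCgcgcact
The shared stretch is 72.7% G and C. The window of 250 bases before the Col3a1 start, chr1:45311288-45311537 on the + strand, is printed as a contrast. It is 35.2% G and C, against a median of 52.4% over all 32851 promoter windows, and holds 0 CpG dinucleotides. The motif TATAAA, in capitals, starts 117 bases before the annotated start.
Col3a1 promoter (+): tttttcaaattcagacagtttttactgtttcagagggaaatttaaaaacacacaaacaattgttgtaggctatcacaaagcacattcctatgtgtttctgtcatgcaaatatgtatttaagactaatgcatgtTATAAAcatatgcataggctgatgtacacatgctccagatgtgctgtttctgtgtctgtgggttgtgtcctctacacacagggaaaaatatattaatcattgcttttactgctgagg
In windows of that length, searched on both strands, TATAAA was present in 12.4% of all promoters and, of the 5 genes, in Col3a1. CCAAT was present in 33.8% of all promoters and in those of Col1a2, Col4a1 and Col4a2. GGGCGG was present in 32.7% of all promoters and in those of Col1a2 and Col4a2. The Col1a2 and Sparc windows hold annotated exon sequence of the same gene, and those of Col4a1 and Col4a2 hold exon sequence of each other. These matches describe letters in a window and do not show that a factor binds there.

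Depth and the libraries that stand apart bear on every value below. Recovered reads ranged from 7284487 to 13039989 in APOE2 and from 7080308 to 8801867 in APOE3, and 14026 to 17018 genes had reads in a library. Reads carry no molecular identifiers, so the counting errors given below cover counting alone. The 12 melanocyte markers all passed the filter and summed to 317344 to 480081 normalised counts in APOE2 and 235180 to 349053 in APOE3, while Ptprc, which encodes CD45, was between 1.01 and 38.5 in the 13 libraries, at 1 or more reads in each. A large part of the melanocyte sums was 1 gene, Dct, with means of 232522 in APOE2 and 150389 in APOE3. APOE3 replicate 4 had the highest APOE3 value for 7 of the 10 matrix genes, where 20.2% of all 12403 genes tested were highest in that library. APOE2 replicate 3 had the lowest APOE2 value for 7 of the 10, against 21.5% of all genes tested, and APOE3 replicate 1 the lowest APOE3 value for 6 of the 10, against 18% of them. Results that rest on these libraries are given with and without them.

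The interstitial collagens were low in every library. Values are normalised counts, that is, reads divided by a factor for each library, and QuantSeq reads come from the 3′ end of a transcript, so a value does not grow with transcript length. Col1a1 (ENSMUSG00000001506, chr11:94936224-94953042, + strand, GRCm38) ranged from 12.7 to 76.8 in APOE2 with a median of 56.7, and was 12.6, 225, 65.6, 274 and 109 in APOE3 replicates 1 to 5. The APOE3 libraries thus covered the whole APOE2 range and reached well above it. The means were 48.3 ± 24.6 (SD, n = 8) and 137 ± 109 (SD, n = 5). Its partner chain Col1a2 (ENSMUSG00000029661, chr6:4504814-4541544, + strand) ranged from 10.1 to 86.6 in APOE2 with a median of 56.6, and was 67.4, 67.8, 109, 248 and 44.0 in APOE3. Only APOE3 replicates 3 and 4 lay above all APOE2 libraries. The means were 53.2 ± 27.9 (SD, n = 8) and 107 ± 81.9 (SD, n = 5). Col3a1 (ENSMUSG00000026043, chr1:45311538-45349706, + strand) ranged from 11.0 to 97.2 in APOE2 with a median of 44.7, and was 59.0, 71.2, 64.5, 350.2 and 81.0 in APOE3. In 4 APOE3 libraries Col3a1 was closely alike, and replicate 4 alone lay above the APOE2 range. The coefficient of variation of Col3a1 in APOE3 was 101% with that library and 13.7% without it. Reads behind these values were few, 11 to 372 per library over the 3 genes. An exon of Gm47302, on the same strand, overlaps Col3a1. Gm47302 has no row in the deposited table, and how reads in the overlap were counted is not given in the sources used here.

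The collagen I chains form 1 protein, yet their transcripts did not keep a fixed ratio across libraries. The log2 ratio of Col1a1 to Col1a2 averaged −0.12 ± 1.20 (SD, n = 8) in APOE2, from −2.68 to 1.02, and 0.02 ± 1.62 (SD, n = 5) in APOE3, from −2.33 to 1.72. The genotypes differed by −0.14 (exact permutation test, two-sided, p = 0.863; adjusted p = 0.863 over the 2 chain pairs). APOE3 replicate 1 shows the disparity, with Col1a1 at 12.6 and Col1a2 at 67.4.

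In APOE2 the basement-membrane chains had higher means than the interstitial ones and a lower coefficient of variation. In APOE3 the order was mixed, and Col1a1 exceeded both in replicate 2. Col4a1 (ENSMUSG00000031502, chr8:11198423-11312826, − strand) ranged from 97.1 to 189 in APOE2 with a median of 127, and was 155, 155, 222, 277 and 196 in APOE3. The 2 lowest APOE3 libraries lay inside the APOE2 range and the other 3 above it. The means were 136 ± 31.8 (SD, n = 8) and 201 ± 51.1 (SD, n = 5). Col4a2 (ENSMUSG00000031503, chr8:11312805-11449287, + strand) ranged from 32.7 to 195 in APOE2 with a median of 105, and was 106, 145, 169, 136 and 90.2 in APOE3. All 5 APOE3 values of Col4a2 fell inside the APOE2 range, and the means were 106 ± 51.4 (SD, n = 8) and 129 ± 31.1 (SD, n = 5). The log2 ratio of Col4a1 to Col4a2 averaged 0.50 ± 0.87 (SD, n = 8) in APOE2 libraries and 0.63 ± 0.43 (SD, n = 5) in APOE3 libraries, which differed by −0.14 (two-sided exact permutation p = 0.746, adjusted p = 0.863). Although the pair shares the start region printed above, their log2 values, centred on the genotype means, had r = 0.02 over the 13 libraries and −0.01 without APOE3 replicate 4. The 2 genes overlap on opposite strands at their first exons, far from the 3′ ends that QuantSeq reads. The strand setting of the counting is not given in the sources used here.

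Dcn, Eln and Mgp each had a higher mean in APOE3, with the groups overlapping for each. Dcn (ENSMUSG00000019929, chr10:97479609-97518143, + strand) ranged from 4.60 to 148 in APOE2 with a median of 45.0, and was 26.3, 84.7, 136, 753 and 50.9 in APOE3. Replicate 4 alone exceeded the APOE2 range, and the APOE3 mean of 210.3 ± 306 (SD, n = 5) rests on it. The APOE2 mean was 56.5 ± 43.8 (SD, n = 8). Eln (ENSMUSG00000029675, chr5:134702593-134747323, − strand) ranged from 2.76 to 46.3 in APOE2 with a median of 25.5, and was 11.6, 37.3, 119.7, 226 and 78.7 in APOE3. Replicates 3, 4 and 5 lay above every APOE2 library and the other two inside the APOE2 range. The means were 23.8 ± 15.2 (SD, n = 8) and 94.6 ± 84.1 (SD, n = 5), from 3 to 240 reads, the fewest of the 10 genes. Gm30003 overlaps Eln on the opposite strand. Mgp (ENSMUSG00000030218, chr6:136872435-136875823, − strand) ranged from 94.7 to 263 in APOE2 with a median of 187, and was 183, 425, 364, 856 and 418 in APOE3. Of the 5 APOE3 libraries, 4 lay above every APOE2 library and replicate 1 lay inside their range. The means were 183 ± 50.7 (SD, n = 8) and 449 ± 247 (SD, n = 5), on 103 to 909 reads.

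Fn1 and Sparc had the smallest differences between the genotypes. Fn1 (ENSMUSG00000026193, chr1:71585520-71653200, − strand) ranged from 166 to 405 in APOE2 with a median of 252, and was 108, 397, 295, 185 and 568 in APOE3. The APOE3 values extended beyond the APOE2 range on both sides, and the means were 266 ± 89.6 (SD, n = 8) and 310.4 ± 181 (SD, n = 5). Sparc (ENSMUSG00000018593, chr11:55394500-55423183, − strand) ranged from 4677 to 7199 in APOE2 with a median of 5999, and was 4161, 7532, 5437, 3733 and 6613 in APOE3. The genotypes overlapped across most of that span, with means of 6028 ± 935 (SD, n = 8) and 5495 ± 1604 (SD, n = 5). Sparc stood apart by level: it ranked 182 of all genes by mean normalised count, where the next member, Mgp, ranked 5178 and Eln 9650. In 12 libraries Sparc made up 77.9% to 90.1% of the summed normalised counts of the 10 genes, and in APOE3 replicate 4 it made up 53.1%. Ranks of QuantSeq counts compare transcript ends and are not corrected for how well each end is captured.

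**Figure D1:**
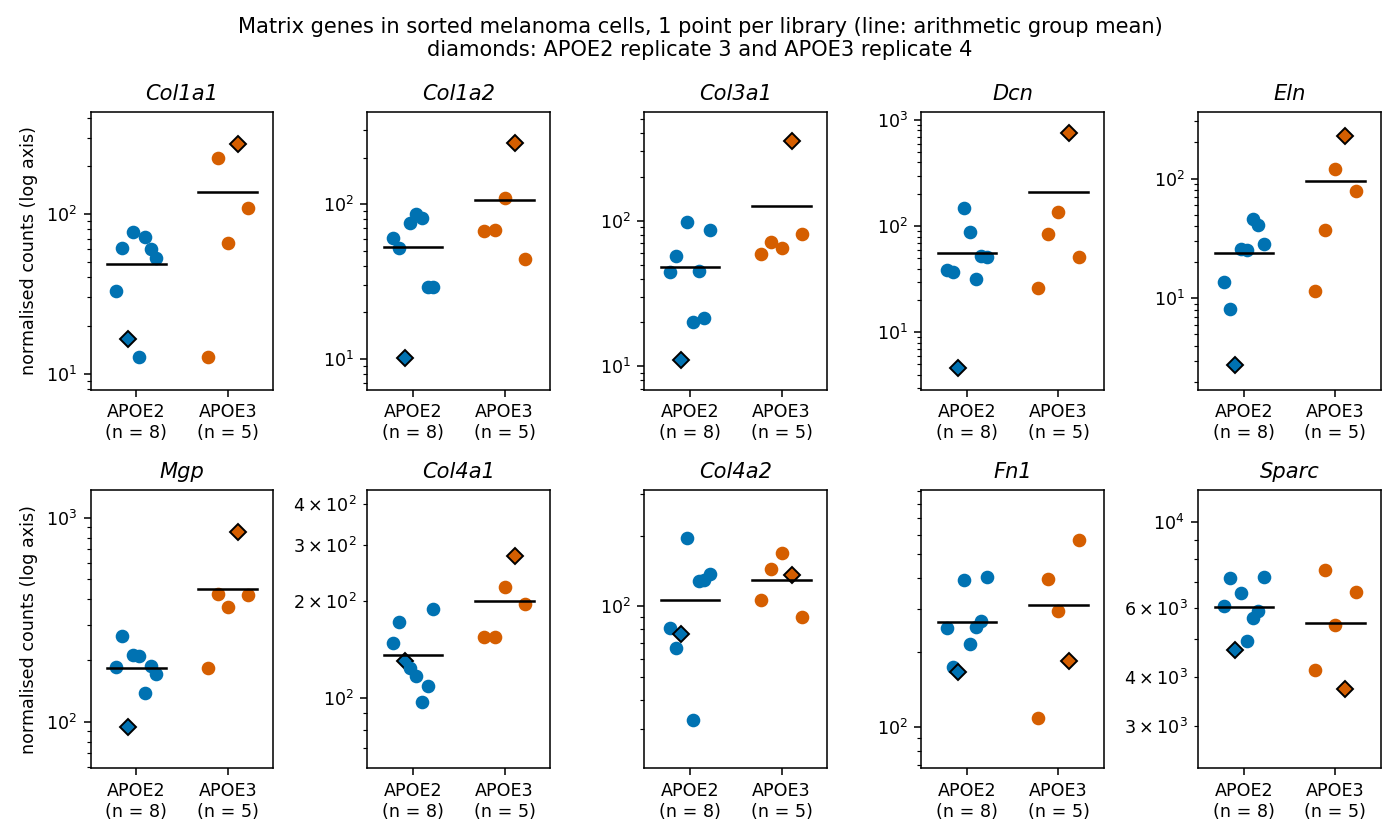
Normalised counts of each of the 10 matrix genes in every library on log axes that differ between genes, with 1 point per library, a line at each group's arithmetic mean and diamonds for APOE2 replicate 3 and APOE3 replicate 4. Sparc lies between 3733 and 7532, Mgp is above the APOE2 range in 4 of 5 APOE3 libraries, and APOE3 replicate 4 is highest for 7 genes.

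Spread within APOE2 differed between the genes, as did their levels. Sparc had the smallest coefficient of variation, 15.5%, followed by Col4a1 at 23.4%, Mgp at 27.7% and Fn1 at 33.7%. Genes of similar mean had medians of 25.6% for Col4a1, 22.4% for Mgp and 19.3% for Fn1. Col4a2 was at 48.5%, where such genes had a median of 28.6%. Those of Dcn, Col3a1 and Eln were 77.5%, 65.4% and 63.6%, where genes of similar mean had medians of 38.4%, 41.6% and 57.7%. Against genes of similar mean, Fn1 and Col4a2 thus lay further above the median than Eln. Counting error alone would give 13.1%, 14.1% and 20.2%. For Sparc it would give 1.25%, and the median of genes of similar mean was 11.4%. For each of the 10 genes the spread between libraries exceeded the counting error.

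The genotype comparison asks whether the host's APOE allele goes with a different level of these transcripts in the sorted cells. Of the 10 genes, Mgp alone passed the test, at a lower level in APOE2, and 0 were called higher in APOE2. The background was 47 of 12403 genes called lower, 0.379%, and 51 called higher, 0.411%. Mgp was 2.26-fold higher in APOE3 on the log2(value + 1) scale, with a log2 fold change of APOE2 over APOE3 of −1.17 ± 0.27 (SE; limma with Benjamini-Hochberg adjustment over all genes, adjusted p = 0.0382), and 8 of 8 APOE2 libraries lay below the APOE3 mean. Without APOE3 replicate 4 its log2 fold change was −0.90 (adjusted p = 0.122). With any single library left out, Mgp kept its call only without APOE3 replicate 1 (adjusted p = 0.00410, with 0.781% of all genes called lower) or APOE2 replicate 4 (adjusted p = 0.0477), and the other 11 omissions gave adjusted p from 0.0536 to 0.122. Calls over all genes, in either direction, also moved with omissions, from 98 with every library to 9 without APOE3 replicate 3 and 228 without APOE3 replicate 1. In bulk RNA, fewer cells of a type and less RNA per cell cannot be told apart.

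The other genes did not pass after adjustment, although 9 of 10 had a log2 fold change below 0, as did 49.9% of all genes tested. The median was −1.05 over the 10 genes and 0.00037 over all genes tested. Eln had −1.72 ± 0.64 (SE; adjusted p = 0.223), Dcn −1.31 ± 0.66 (adjusted p = 0.371), Col3a1 −1.28 ± 0.49 (adjusted p = 0.239) and Col1a1 −1.12 ± 0.57 (adjusted p = 0.380). Col1a2 had −0.98 ± 0.47 (adjusted p = 0.344), Col4a1 −0.55 ± 0.22 (adjusted p = 0.243), and Col4a2 −0.42 ± 0.33 (adjusted p = 0.598). Fn1 had −0.07 ± 0.30 (adjusted p = 0.944) and Sparc 0.17 ± 0.15 (adjusted p = 0.649). At an unadjusted p under 0.05, 5 of the 10 genes were lower in APOE2, against 6.71% of all genes. For 0 of the 10 were the genotypes' libraries fully separate, against 0.508% of all genes separate in that direction. For 7 of 10, every APOE2 library lay below the APOE3 mean, as for 10.9% of all genes. DESeq2 on the recovered reads called Mgp and also Eln lower (log2 fold change −1.99, adjusted p = 0.0355), against a background of 1.11%, and edgeR called Mgp alone (adjusted p = 0.0178), against 0.621%.

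**Figure D2:**
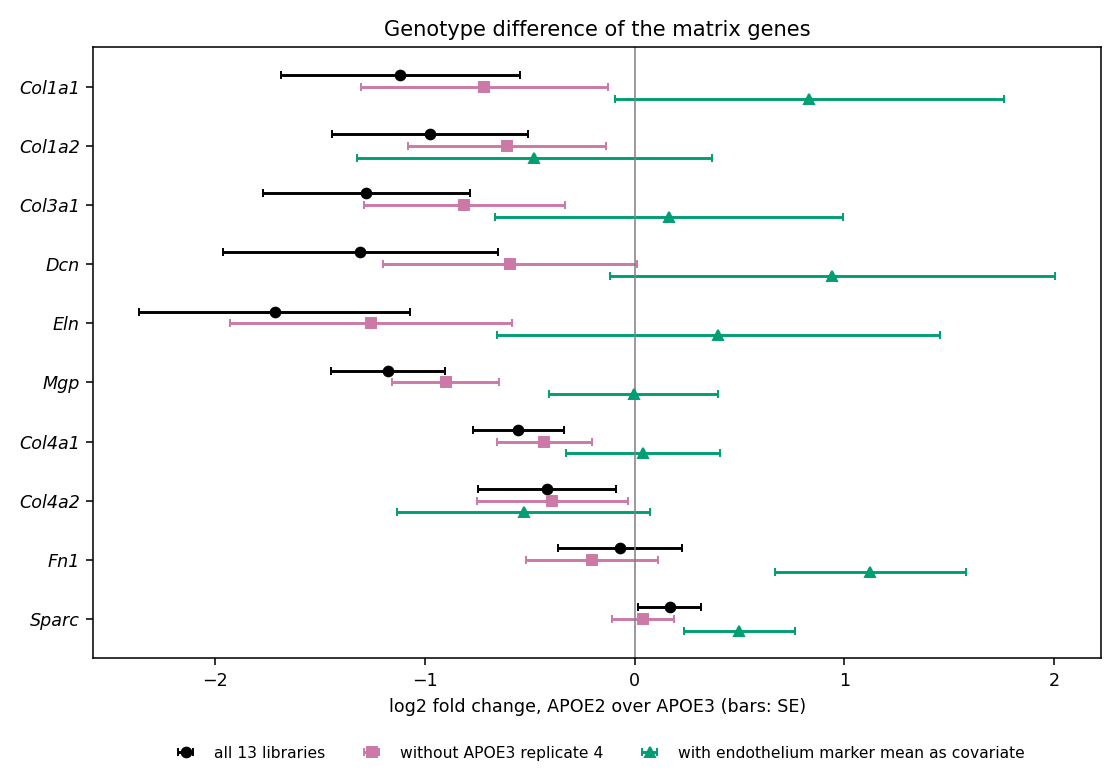
Log2 fold change of APOE2 over APOE3 for each of the 10 genes with its standard error, with all libraries, without APOE3 replicate 4, and with the endothelial marker mean as a covariate. The values run from −1.72 for Eln to 0.17 for Sparc with all libraries, and that of Mgp moves from −1.17 to −0.90 when that library is left out and to −0.0043 with the covariate.

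APOE3 replicate 4 differed from the other 4 APOE3 libraries by an amount that depended on the gene. Set against the median of the other 4, it held 11.1 times as much Dcn, 5.16 times as much Col3a1, 3.90 times as much Eln, 3.66 times as much Col1a2 and 3.14 times as much Col1a1. Mgp was at 2.19 times, Col4a1 at 1.58 and Col4a2 at 1.08, whereas Sparc and Fn1 were below it, at 0.620 and 0.534. In the same library the summed level of the melanocyte markers was 1.00 times that median, of the fibroblast markers 1.59, of the smooth muscle and pericyte markers 2.14, of the endothelial markers 1.34, of the alveolar type 2 markers 2.08 and of the leukocyte markers 2.82. Lyz2 alone held 11891 of the leukocyte sum of 12426 in that library. Dct held 134600 of its melanocyte sum of 273613. The cartilage markers were at 0.587 and the mesothelium markers at 1.19, sums over lists with 4 and 3 genes past the filter. Their part in the matrix values of that library was not tested.

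Leaving that library out moved most of the differences toward 0. The median over the 10 genes was then −0.60, 1 gene had an unadjusted p under 0.05, and limma called 0 of the 10, against 0.0728% of all genes called lower. Dcn went from −1.31 to −0.59, Col1a1 to −0.72, Col1a2 to −0.61, Col3a1 to −0.81 and Eln to −1.26. Sparc went to 0.04 and Fn1 to −0.20. APOE2 replicate 3 stood apart at the other end: against the APOE2 median, Dcn was at 0.102 times, Eln at 0.108, Col1a2 at 0.179, Col3a1 at 0.247 and Col1a1 at 0.292. Mgp was at 0.506, Sparc at 0.780 and Col4a1 at 1.03 in that library. Without both libraries, 0 of the 10 genes were called, against 0.00808% of all genes called lower, and Mgp was at −0.77 (adjusted p = 0.155).

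**Figure D3:**
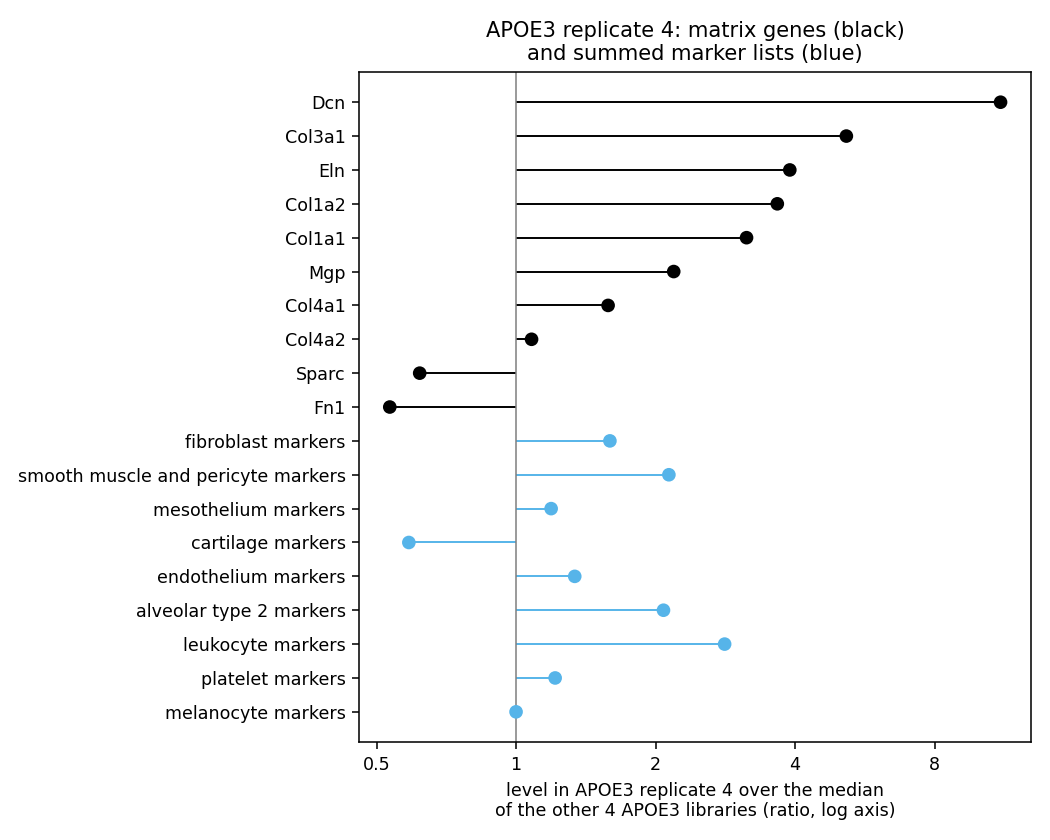
Ratio of APOE3 replicate 4 to the median of the other 4 APOE3 libraries, on a log axis, for the 10 matrix genes and the summed marker lists. Dcn is at 11.1, the fibrillar collagens and Eln between 3.14 and 5.16, the melanocyte list at 1.00, and Sparc and Fn1 below 1.

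Expressed relative to Sparc in the same library, a setting chosen after seeing the data, Mgp had a log2 fold change of −1.34 (adjusted p = 0.0236), with 0.331% of all genes called lower. Eln was at −1.88, Dcn −1.47, Col3a1 −1.45, Col1a1 −1.28, Col1a2 −1.14, Col4a1 −0.72, Col4a2 −0.59 and Fn1 −0.24, and none of these passed (adjusted p from 0.277 to 0.811). This scaling moved the median of all genes by −0.17.

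The genes also differed in which of them varied together across libraries. Correlations here are over the 13 libraries, on log2 values centred on the genotype means, and carry no test, since the genes share each library's depth and cell mixture. The 6 of 10 genes with a log2 fold change of −0.9 or lower, as 4.8% of all genes tested had (Col1a1, Col1a2, Col3a1, Dcn, Eln and Mgp, a group formed after their values were seen) had r from 0.31 to 0.84 over their 15 pairs, with a median of 0.64. Dcn was a common partner, with r = 0.84 with Mgp, 0.81 with Col1a2, 0.79 with Eln and 0.72 with Col3a1. Col1a1 and Col1a2, which form 1 protein, had r = 0.31, the lowest of the 15. Sparc and Fn1 had r = 0.75 with each other, both with and without APOE3 replicate 4.

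Between those 6 genes and Sparc or Fn1, the picture depended on 1 library. Over their 12 pairs r ranged from −0.20 to 0.55 with a median of 0.20 in all 13 libraries, and from 0.06 to 0.89 with a median of 0.57 without APOE3 replicate 4. Mgp with Sparc went from 0.17 to 0.77, Col1a1 with Sparc from 0.45 to 0.89, and Col3a1 with Sparc from 0.13 to 0.67. Dcn with Sparc went from −0.03 to 0.46. Within the 6 genes the median fell from 0.64 to 0.52 without that library, and Dcn with Mgp was at 0.75.

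**Figure D4:**
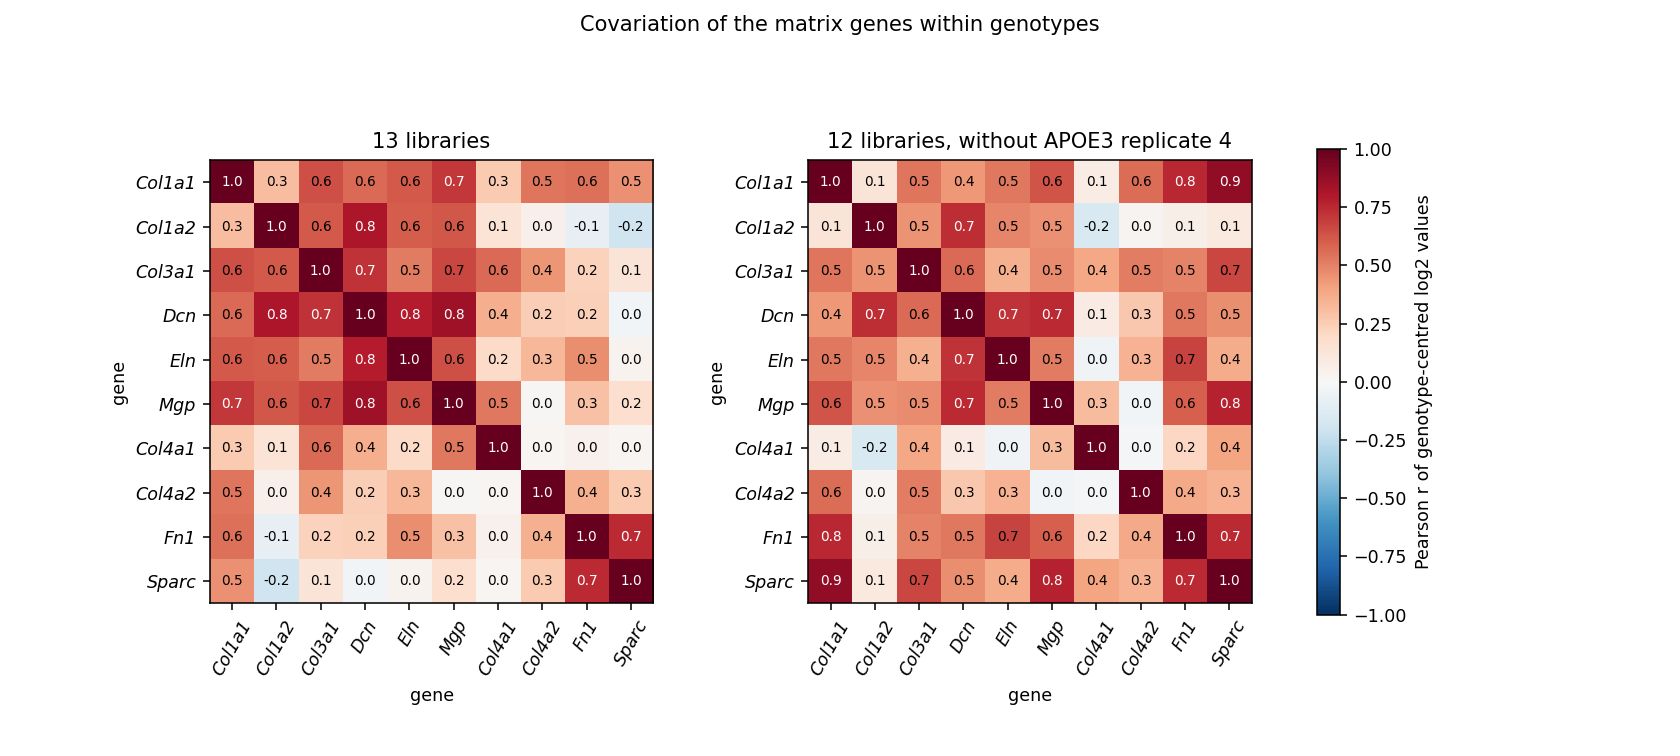
Pearson r between each pair of the 10 genes over log2 values centred on the genotype means, for all 13 libraries and without APOE3 replicate 4. Dcn has r of 0.72 or more with Col1a2, Eln and Mgp in both, and the values of Sparc with Mgp and Col1a1 rise from 0.17 and 0.45 to 0.77 and 0.89 when that library is left out.

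Among 9680 genes with a mean of at least 50, those most like each matrix gene were found by the same centred r, as a description over 13 libraries. For Dcn they were C3 (0.88), the complement component, Rnase4 (0.86) and Gde1 (0.86). For Mgp they were S100a16 (0.89), Tns1 (0.87) and Txnl4a (0.87). For Eln they were Emp2 (0.94), Btg2 (0.91) and P4ha2 (0.91), a subunit of a collagen prolyl hydroxylase. Sparc was most like Lgals7 (0.94), Tbc1d9b (0.91) and Pafah2 (0.90). Fn1 was most like Anxa5 (0.92), Lmna (0.91), which encodes lamin A/C, and Nedd4l (0.90). The nearest to Col1a1 was Adcy9 (0.92), to Col1a2 Synj2 (0.87), to Col3a1 Vars (0.87) and to Col4a1 Dok5 (0.89). No gene was among the 3 nearest of more than 1 matrix gene. These are the highest values of 9680 and carry no test.

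Whether each gene varied with host or tumour markers was examined within the 8 APOE2 libraries, against the mean log2 level of 5 marker lists: fibroblast (7 genes tested), endothelium (13), alveolar type 2 cells (11), smooth muscle and pericytes (5) and melanocytes (12). Of 50 relations, 3 had an unadjusted exact permutation p under 0.05, and 1 passed after adjustment over the 50. The 10 genes all had a negative r with the melanocyte mean, and 34 of the 40 relations with host markers were positive. How far these signs depended on few libraries differed between the marker lists. Without the 2 farthest from the median of the alveolar type 2 mean, r with it was above 0 only for Col1a2 (0.20) and Eln (0.14), and −0.85 for Col3a1 and Sparc. Trimmed in the same way for each list, r with the fibroblast mean was above 0 for all but Col1a2 (−0.32), and Eln went from −0.15 to 0.0099. With the endothelial mean, r was above 0 for all but Col4a2 (−0.0086) and Eln (−0.14). With the smooth muscle and pericyte mean, r was below 0 for Col1a1, Col4a2, Dcn and Mgp. With the melanocyte mean, r was above 0 for Col1a2 (0.35) and Eln (0.04). The relation that passed was Mgp with the melanocyte mean (n = 8, Pearson r = −0.93, exact permutation p = 0.00082, adjusted p = 0.0409). Spearman's rho was −0.88 (exact permutation p = 0.00724, adjusted p = 0.362), and r was −0.75 without the 2 libraries farthest from the median of the melanocyte mean. With each APOE2 library left out in turn, r stayed between −0.95 and −0.86 and passed after adjustment without replicate 5 or replicate 8. Centred on genotype over all 13 libraries, r was −0.06 (permutation p = 0.893, adjusted p = 0.951), and −0.34 without APOE3 replicate 4. The melanocyte mean itself spanned little in APOE2, 12.62 to 12.91 on the log2 scale.

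The other relations with the melanocyte mean did not pass. Dcn had r = −0.72 (n = 8, exact permutation p = 0.0415, adjusted p = 0.592; rho = −0.57) and 0.03 when centred over 13 libraries. Sparc had r = −0.72 (n = 8, exact permutation p = 0.0425, adjusted p = 0.592; rho = −0.71), −0.30 without the 2 farthest libraries and −0.29 when centred. Sparc was thus apart from the other genes by level, and Sparc and Fn1 were the 2 genes below the median of the other 4 APOE3 libraries in replicate 4, where Col4a2 was close to it at 1.08. The sign of the relation with the melanocyte markers was the same for all 10 genes in APOE2, but not when centred over 13 libraries. Col4a2 and Col1a1 were then at 0.14, Col1a2 at 0.07 and Eln and Dcn at 0.03, with the other genes below 0. How many of all genes had a negative r in APOE2 was not counted. Which cells the transcripts came from was not tested.

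Centred on genotype over 13 libraries, 38 of the 40 relations with host markers were positive, and 0 passed after adjustment, the smallest adjusted p being 0.139 by permutation. The 40 relations share the same libraries and are not independent. How many of all genes had a positive r with these means, centred or in APOE2, was not counted. The highest values were those of Eln with the alveolar type 2 mean (0.76), Col4a1 with the smooth muscle and pericyte mean (0.73), Mgp with the fibroblast mean (0.72), Mgp with the endothelial mean (0.70) and Col1a1 with the alveolar type 2 mean (0.70). Sparc with the fibroblast mean was at 0.08, and at 0.61 without APOE3 replicate 4. Fn1 with the endothelial mean was at 0.62, and at 0.76 without it.

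**Figure D5:**
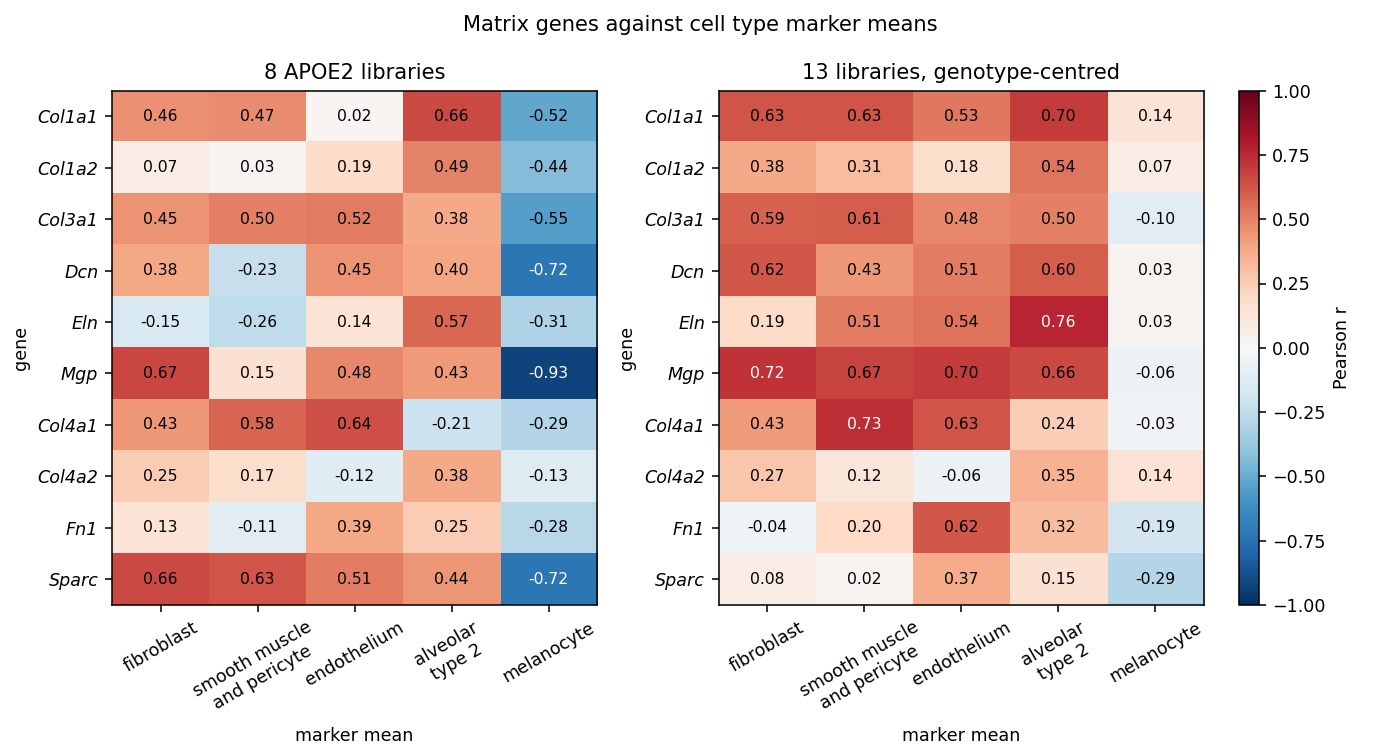
Pearson r of each of the 10 genes with the mean log2 level of 5 marker lists, in the 8 APOE2 libraries and in all 13 libraries centred on genotype. In the APOE2 libraries every value with the melanocyte list is negative, from −0.93 for Mgp to −0.13, and 34 of 40 with the host lists are positive. When centred, Col1a1, Col1a2, Col4a2, Dcn and Eln are above 0 with the melanocyte list.

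The marker means moved with genotype beside the matrix genes. The fibroblast mean spanned 3.95 to 5.14 in APOE2 hosts and 5.20 to 6.82 in APOE3 hosts, so all 5 APOE3 libraries lay above all 8 APOE2 libraries. The endothelial mean spanned 4.60 to 5.63 and 5.29 to 7.11, the alveolar type 2 mean 5.67 to 7.62 and 7.58 to 9.63, and the smooth muscle and pericyte mean 3.02 to 4.06 and 3.42 to 5.54. With the fibroblast mean as a covariate, the log2 fold change of Mgp was −0.11 (adjusted p = 0.981), of Col1a2 −0.05, of Col3a1 0.27, of Dcn 1.08, of Col1a1 0.90 and of Eln −1.07. With the endothelial or the alveolar type 2 mean, Mgp was at −0.0043 (adjusted p = 1.00) and −0.15 (adjusted p = 0.974). Each of the 3 covariates left 0 genes called of all tested, where 98 were called without one. Sparc was at 0.23, 0.50 and 0.29 with the fibroblast, endothelial and alveolar type 2 mean, on the same side of 0 as without a covariate.

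The rest of the matrix pathway gave few calls. For the lists below, counts at an unadjusted limma p under 0.05 cover both directions. The only share over all genes given at that threshold is that of lower genes, 6.71%. Of 13 other collagen genes tested, 0 were called by limma, with 1 at an unadjusted p under 0.05 and a median log2 fold change of −0.42. In normalised counts Col6a1, a chain of the microfibrillar collagen VI, stood at 7.72 ± 6.41 (SD, n = 8) against 53.7 ± 62.2 (SD, n = 5) in APOE3, with 164 in replicate 4 (log2 fold change −2.48, limma adjusted p = 0.122). DESeq2 called Col6a1 lower in APOE2 (log2 fold change −2.80, adjusted p = 0.00547), and edgeR gave an adjusted p of 0.0507. Of 21 genes for collagen modification and secretion, limma, edgeR and DESeq2 called 0 and 2 were under 0.05 unadjusted in limma, with a median of −0.07. Among them the prolyl 3-hydroxylase P3h2 was at 301 ± 58.9 (SD, n = 8) and 416 ± 83.4 (SD, n = 5; adjusted p = 0.212), and Loxl1, a lysyl oxidase that cross-links elastin, at 4.85 ± 3.85 (SD, n = 8) and 21.5 ± 12.8 (SD, n = 5; adjusted p = 0.246). Of 10 basement-membrane genes besides Col4a1 and Col4a2, the same tools called 0 and 0 were under 0.05 unadjusted, with a median of 0.08. Nidogen Nid1 was at 122 ± 38.9 (SD, n = 8) and 87.5 ± 20.8 (SD, n = 5; limma adjusted p = 0.421).

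Of 9 elastic fibre genes, limma called 0 and 1 was under 0.05 unadjusted, with a median of −0.20. That gene was Ltbp4, which binds latent TGF-beta and takes part in elastic fibre assembly, at 56.7 ± 23.0 (SD, n = 8) and 153 ± 93.1 (SD, n = 5; limma adjusted p = 0.144), and DESeq2 called it lower in APOE2 (adjusted p = 0.0287). Of 10 small proteoglycans and matricellular genes, 1 was called lower, Bgn (biglycan), the relative of decorin, and the median was −0.35. Bgn averaged 22.1 over the APOE2 libraries, from 6.77 to 42.1, and 115 ± 58.6 (SD, n = 5) over the APOE3 libraries, from 48.5 to 202. Its groups were fully separate, with a log2 fold change of −2.45 ± 0.48 (SE; limma adjusted p = 0.0202). The Bgn call was lost without APOE3 replicate 3 (adjusted p = 0.0582) or replicate 4 (adjusted p = 0.0688), the log2 fold change staying between −2.72 and −2.21 over the single omissions. Over all genes, limma called 9 without replicate 3 and 30 without replicate 4, in either direction, against 98 with every library.

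Of 13 matrix proteases and inhibitors, limma, edgeR and DESeq2 called 0 and 4 were under 0.05 unadjusted, with a median of 0.15. The inhibitor Timp3 was at 279.9 ± 54.0 (SD, n = 8) and 445 ± 151 (SD, n = 5; limma adjusted p = 0.189, and 0.0165 without APOE3 replicate 1), and the membrane-bound collagenase Mmp14 at 1383 ± 226 (SD, n = 8) and 1072 ± 293 (SD, n = 5; limma adjusted p = 0.221). Of 13 TGF-beta ligands, receptors and SMAD genes, these tools called 0 and 3 were under 0.05 unadjusted, with a median of −0.13. Tgfb1 was at 16.1 ± 9.12 (SD, n = 8) and 41.1 ± 23.8 (SD, n = 5; limma adjusted p = 0.305).

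Several markers that define fibroblasts apart from their matrix were near or at 0. Of 14 fibroblast markers, 7 passed the filter, and their full list summed to 229.8 to 642 normalised counts in APOE2 and 497 to 987 in APOE3. Those below the filter were Pdgfra, Tcf21, Pi16, Scara5, Fgf10, Prrx1 and Thy1. Tcf21, a transcription factor of lung fibroblasts, was at 0 in 12 of 13 libraries, and Pdgfra, which encodes a platelet-derived growth factor receptor of fibroblasts, had a median of 3.92 in APOE2 and 4.52 in APOE3 with 34.7 at most. Of the 7 tested, limma called 0, with 4 under 0.05 unadjusted and a median of −1.21. Inmt, a methyltransferase gene abundant in lung stroma, was at 44.1 ± 16.1 (SD, n = 8) and 121 ± 61.6 (SD, n = 5; limma adjusted p = 0.0669). Inmt was called lower in APOE2 by edgeR (adjusted p = 0.0338) and DESeq2 (adjusted p = 0.00539), and by limma without APOE3 replicate 1 (adjusted p = 0.0499) or replicate 2 (adjusted p = 0.0389). Of 11 smooth muscle and pericyte markers, 5 passed the filter (59.1 to 139 summed in APOE2 and 116 to 356 in APOE3), and Acta2, smooth muscle actin, was called lower in APOE2. Acta2 was at 12.2 ± 9.96 (SD, n = 8) and 89.3 ± 45.8 (SD, n = 5; log2 fold change −3.09, limma adjusted p = 0.0216), and lost its call without APOE3 replicate 3 (adjusted p = 0.0768) or replicate 4 (adjusted p = 0.0710). Those omissions left 9 and 30 of all genes called in either direction, against 98 with every library.

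Markers of other lung cells moved with genotype too. Of 14 endothelial markers 13 were tested, and Esam and Calcrl were called lower, with a list median of −1.52 and sums of 786 to 1191 in APOE2 and 1085 to 2225 in APOE3. Without APOE2 replicate 2 or APOE3 replicate 3, 4 or 5, limma called 0 of them, and without APOE3 replicate 1 it called 5. Over all genes, in either direction, limma called 98 with every library, 228 without APOE3 replicate 1, 9 without replicate 3, 30 without replicate 4 and 79 without replicate 5. It called 28 without APOE2 replicate 2, 50 without APOE2 replicate 7, and 4 without both APOE3 replicate 4 and APOE2 replicate 3. All 11 alveolar type 2 markers were tested and 7 were called lower, with a median of −2.23 and sums of 1366 to 4673 and 4188 to 22538. Over single omissions 3 to 9 were called, 3 without APOE3 replicate 3 and 4 without replicate 4, and 0 without both APOE3 replicate 4 and APOE2 replicate 3. Of 15 leukocyte markers 9 were tested and 2 called lower (Lyz2 and Cd74), with sums of 457 to 2583 and 2018 to 12426, with 0 called without APOE3 replicate 3 or 4 and 1 without APOE2 replicate 7 or APOE3 replicate 5. Lyz2, with means of 1162 in APOE2 and 5288 in APOE3, was the larger part of the leukocyte sums on average, where Cd74 was at 32.2 and 116. Of the 12 melanocyte markers limma called 0, with 1 at an unadjusted p under 0.05 and a median of 0.08. DESeq2, edgeR and limma without APOE3 replicate 2 each called 1 of them higher in APOE2. The mesothelium, cartilage and platelet lists, with 3, 4 and 2 genes tested, had 0 calls by limma, edgeR and DESeq2 and medians of −0.66, −0.70 and −0.62, with 0, 1 and 0 genes under 0.05 unadjusted. Their summed levels were 333 to 579, 587 to 733 and 162 to 204 in APOE2 and 349 to 576, 469 to 1042 and 119 to 292 in APOE3. The platelet sum was mostly Itgb3, with means of 156 in APOE2 and 189 in APOE3, where Ppbp was at 6.43 and 21.2. Msln and Upk3b, at 9.34 and 20.1 in APOE2, were a small part of the mesothelium sum. Matn4 and Hapln1, at 53.1 and 47.4 in APOE2, were a small part of the cartilage sum. These sums need not follow the number of such cells. All 22656 genes of the deposited table had reads in at least 1 library, so no listed gene with a row could be at 0 throughout. The part of these cells in the matrix values was not tested, and with marker level and genotype moving together in these libraries it cannot be told apart from the host's allele.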

How the data were processed

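The file the authors deposited for the 13 QuantSeq libraries holds normalised counts (a signal of 0 or more for each gene), produced with STAR 2.6.0, featureCounts and DESeq2 1.28.1 on mm10, per the submitters' processing notes. The annotation used for counting is not given in the sources used here. Every nonzero value divided by its library's step gave a whole read (100% within 0.001). These recovered reads gave depth, counting errors and the edgeR 4.0.16 (quasi-likelihood) and DESeq2 1.42.0 alternatives. Symbols and positions came from GENCODE M21 on GRCm38, where 22649 identifiers matched and 7 did not. Groups were taken from the genotype label. Values were transformed as log2(value + 1), which understates changes of low genes. The 12403 genes with a mean of at least 10 were tested with limma 3.58.1 (R 4.3.3), letting the prior variance follow the mean, two-sided, with Benjamini-Hochberg adjustment over all of them and a threshold of 0.05. The limma and correlation steps were tested on simulated data. Correlations used SciPy 1.17.1, with exact permutation over 40320 pairings or 100000 resamples within genotype, and chain ratios all 1287 divisions of the libraries (smallest p 0.000777). Promoter sequences are RefSeq's (GRCm38.p6). The 10 genes, the lists and the tests were chosen with earlier results of these data known. From each other list, up to 5 called genes, or the 2 with the smallest unadjusted p, could be named, and defining markers below the filter. The nearest 3 genes by r are given for Dcn, Mgp, Eln, Sparc and Fn1 and the nearest 1 for Col1a1, Col1a2, Col3a1 and Col4a1; that of Col4a2 is not reported here. Col8a2, Lama1, Fbn2, Spock1, Acan and Matn1, listed genes without a row in the deposited table, are not used here. Alternatives were pseudocounts of 0.5 and 5, other scalings, no filter or a mean of 50, limma variants, marker covariates, the replicate block and each library left out. Fits relative to Sparc, without 2 libraries together, and centred correlations without APOE3 replicate 4 were added after seeing the data.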

Additional observations from a re-analysis of the deposited data

Results flagged for a closer look

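Dixon's test at the 95% level was applied on the log2 scale to each of the 10 matrix genes in each genotype, 20 screens in all, of which chance would pass about 1. It singled out 2 values. Col3a1 in APOE3 replicate 4 was at 350.2 normalised counts, and its gap to the next library was 0.823 of the group's range, above the critical value for 5 libraries. The other 4 APOE3 libraries lay between 59.0 and 81.0. Dcn in APOE2 replicate 3 was at 4.60 normalised counts, below the other 7 APOE2 libraries by 0.537 of the range, above the critical value for 8 libraries. Both libraries are those that stood apart over several matrix genes.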

How the results depend on the processing

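The 1 matrix gene called lower in APOE2 became 2 with DESeq2 and 0 with array weights, without the trend, without the filter, with the replicate block, with each of the 3 marker covariates and without APOE3 replicate 4 and APOE2 replicate 3 together. It was 0 to 1 over single omissions, and 0 were called higher in every setting run. Mgp was called in 9 of the 17 other settings. It kept its direction in all, with log2 fold changes from −1.34 to −0.0043, and −1.45 to −0.90 over omissions. Over all genes, limma called 98, and 43 with the replicate block, 9 without the filter, 0 without the trend, 138 by edgeR and 314 by DESeq2. Same-numbered libraries of the 2 genotypes correlated from −0.06 to 0.01, below the best match of another number each time. Setting 1 value against the best of several cannot decide whether the numbers mark pairs. The block put Mgp at −1.12 (adjusted p = 0.0974). The 1 relation past the threshold was 0 when centred over 13 libraries and 0 to 1 over omissions.

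Signs changed with covariates: alveolar type 2 gave Col1a1 1.23, Col1a2 0.40, Col3a1 0.10, Col4a2 0.18, Dcn 1.12, Fn1 0.49 and Eln 1.00. Endothelium gave Col1a1 0.83, Col3a1 0.16, Col4a1 0.042, Dcn 0.94, Fn1 1.12 and Eln 0.40. Fibroblast gave Col1a1 0.90, Col3a1 0.27, Col4a2 0.034 and Dcn 1.08. Fn1, near 0, changed sign with array weights (0.10) and without APOE2 replicate 2 (0.0057) or 3 (0.02) or APOE3 replicate 2 (0.07) or 5 (0.20), and ran from −0.39 to 0.20 over omissions. The centred Dcn correlation with the melanocyte mean was 0.032. The genotype difference in log2 Col4a1/Col4a2 ran from −0.32 to 0.029 over omissions, and that of Col1a1/Col1a2 from −0.72 to 0.29. The causes were not tested. Depth limits Eln, Dcn and the interstitial collagens, with as few as 3 reads in a library.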
